A study of Mus musculus with 10 samples.

Results

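The immunoglobulin heavy chain locus Igh lies near the distal end of mouse chromosome 12 and was covered here by 331 of the 402346 array probes that had a position. The members were all non-control probes placed by the array design at chr12:114490000-117250000 of genome build mm9. They were divided by position into a constant side below 114.66 Mb (26 probes), a J and D side from 114.66 to 114.8 Mb (19 probes) and a V side above 114.8 Mb (286 probes). Neighbouring members lay 6.57 kb apart in the median.

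The samples came from 10 mouse leukemias carrying BCR-ABL1, the fusion tyrosine kinase that is the hallmark of Philadelphia chromosome-positive leukemia, as DNA of leukemic marrow cells that were GFP-positive. There were 5 Ikzf1+/- tumours and 5 Ikzf1+/+ tumours, numbered 1 to 5 in each genotype as in the labels. Ikzf1 encodes Ikaros, a zinc finger transcription factor of lymphoid development, and the BCR-ABL1 oncogene was shared by both groups. Each tumour was hybridised in Cy5 on an Agilent 2-colour array for comparative genomic hybridisation (CGH), against stage-matched non-leukemic bone marrow DNA in Cy3, which the design text of the series calls B220-positive B cell DNA. Tumour ages, the vector that carried BCR-ABL1 and the design of the Ikzf1 allele were not given in the sources used here, nor was it stated that each tumour arose in its own animal. The p-values below therefore measure the spread between these samples, which may be technical.

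Igh is the locus in which a B cell precursor assembles the gene of its antibody heavy chain. The RAG recombinase first joins a D segment to a J segment and later a V segment to the DJ join, and each join removes the DNA between the joined ends from that chromosome. A D to J join takes out the DNA between the chosen D and the chosen J, with any D or J segments that lie between them. A V to DJ join takes out the DNA between the chosen V and the DJ join, with all V segments between the chosen V and the D cluster. A lymphoid tumour that grew from a single cell starts with the joins of that cell, whereas a normal B cell population holds many different ones. The constant genes are left in place by these joins, whereas class switching can remove some of them.

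In the RefSeq gene table, which is of GRCm38.p6 and was used for order alone, the locus ran with rising coordinate from 8 constant genes (Igha, Ighe, Ighg2c, Ighg2b, Ighg1, Ighg3, Ighd and Ighm) through 4 J segments (Ighj4 to Ighj1) to 10 D segments and 10 D pseudogenes. Adam6b and Adam6a, sperm metalloprotease genes embedded in the locus, stood between most D segments and the first V segment. With rising coordinate, 2 D entries lay beyond Adam6b, the first of them. The 120 V segments and 63 V pseudogenes followed, from Ighv5-1 and Ighv5-2 nearest to the D segments to Ighv1-86 and Ighv8-16 at the far end. No probe was assigned to a single segment, because positions in the table are of another build.

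All values are log2 ratios of tumour over non-leukemic DNA, centred on the autosomal median of each array. A ratio of -1 is what the removal of 1 of 2 copies from every cell of the tumour sample would give against a reference that kept both. A level below -1, beyond the spread of the probes, is deeper than removal of a single copy from every cell would give. A mean between 0 and -1 can come from 1 copy lost in some cells or from fewer cells with both copies lost. DNA lost from the reference itself raises the ratio, so that a deeper loss in the tumour can also read between 0 and -1. These cannot be told apart here.

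Probe noise was 0.171 to 0.194 in Ikzf1+/- arrays and 0.184 to 0.222 in Ikzf1+/+ arrays, as the SD of log2 ratios. The median Cy5 signal was 199 to 225 in Ikzf1+/- arrays and 88.4 to 159 in Ikzf1+/+ arrays, and the median Cy3 signal was 146 to 165 in Ikzf1+/- arrays and 164 to 179 in Ikzf1+/+ arrays. The median ratio of X probes was 0.094 to 0.14 in Ikzf1+/- tumours and 0.84 to 0.94 in Ikzf1+/+ tumours, and that of Y probes was 0.050 to 0.095 in Ikzf1+/- and -2.87 to -2.30 in Ikzf1+/+ tumours. The reference channel differed less between the genotypes than these ratios. Its X probes lay at -1.24 to -1.19 against autosomes on Ikzf1+/- arrays and -1.19 to -1.14 on Ikzf1+/+ arrays. Its Y probes lay at -1.16 to -1.13 on Ikzf1+/- arrays and -1.21 to -0.98 on Ikzf1+/+ arrays. Genotype therefore cannot be told apart from X and Y content and from array brightness. The X ratio of Ikzf1+/+ tumours also shows the scale of the measurement, since 2 X copies over 1 would give +1. Of 5 slides, slide 3 was the only one to hold both genotypes (Ikzf1+/- tumour 1 and Ikzf1+/+ tumour 5).

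The constant side kept the level of the reference in all 10 tumours. Its mean was -0.052, -0.055, -0.051, 0.050 and 0.0056 in Ikzf1+/- tumours 1 to 5, against 0.094, 0.055, 0.0085, 0.041 and 0.020 in Ikzf1+/+ tumours 1 to 5. The groups overlapped, at -0.021 ± 0.047 in Ikzf1+/- and 0.044 ± 0.034 in Ikzf1+/+ (SD, n = 5 each). No probe of this side lay below -1 in any tumour.

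The J and D side was the lowest stretch of the locus in both group means. Its mean was -0.25, -1.72, -0.34, -0.45 and -0.99 in Ikzf1+/- tumours 1 to 5, against -0.38, -3.09, -1.67, -1.07 and -1.17 in Ikzf1+/+ tumours 1 to 5. These means correspond to 83.9%, 30.3%, 79.1%, 73.0% and 50.3% of the reference in the Ikzf1+/- tumours, and to 76.8%, 11.7%, 31.5%, 47.6% and 44.5% in the Ikzf1+/+ tumours. In each of the 10 tumours 18 of the 19 probes lay below 0. The groups overlapped widely, at -0.75 ± 0.61 in Ikzf1+/- and -1.47 ± 1.01 in Ikzf1+/+ (SD, n = 5 each). Ikzf1+/+ tumour 1 stood among the shallow Ikzf1+/- tumours 1, 3 and 4, and Ikzf1+/- tumour 2 was lower than that tumour. The means of Ikzf1+/- tumour 2 and Ikzf1+/+ tumours 2, 3 and 4 hold 4 or more spots near background and are not exact levels. At the probes from 114692582 to 114718970, Ikzf1+/+ tumour 4 read -0.82 to -0.34 with Cy5 well above background. Ikzf1+/+ tumour 2 read -4.39 to -3.89 there, near background.

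The number of J and D probes below -1 was 0, 14, 0, 0 and 9 of 19 in Ikzf1+/- tumours 1 to 5 and 0, 17, 7, 5 and 13 of 19 in Ikzf1+/+ tumours 1 to 5. Over all autosomal probes the share below -1 was 0.0199%, 0.0424%, 0.0152%, 0.0309% and 0.0659% on the Ikzf1+/- arrays and 0.226%, 0.193%, 0.0824%, 0.164% and 0.11% on the Ikzf1+/+ arrays. Ikzf1+/- tumours 1, 3 and 4 and Ikzf1+/+ tumour 1 had no such probe, so the depth divided tumours within each genotype. The low values came from the tumour channel. Relative to autosomes, Cy5 on this side was -0.62 ± 0.65 in Ikzf1+/- and -1.37 ± 1.03 in Ikzf1+/+, while Cy3 was 0.13 ± 0.041 in Ikzf1+/- and 0.12 ± 0.031 in Ikzf1+/+ (SD, n = 5 each).

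**Figure D1:**
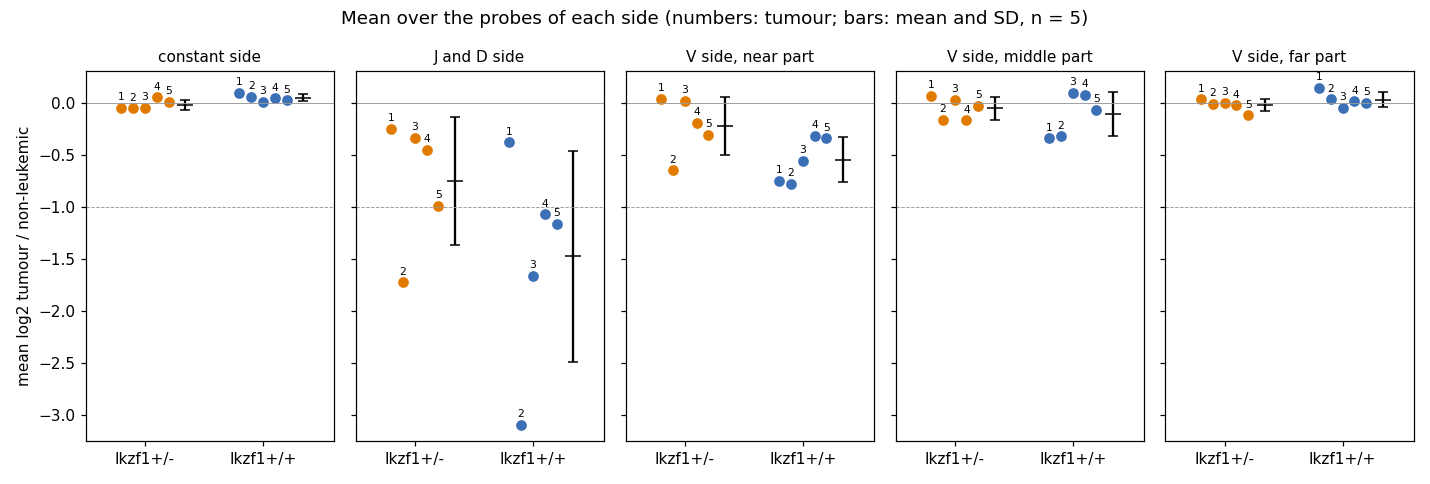
Mean log2 ratio of tumour over non-leukemic DNA on the constant side, the J and D side and the near, middle and far parts of the V side. Points are single tumours, Ikzf1+/- left of Ikzf1+/+, with the group mean and SD (n = 5 each). The constant side and the far V part lie near 0 in both genotypes, while the J and D side runs from -0.25 to -1.72 in Ikzf1+/- and from -0.38 to -3.09 in Ikzf1+/+ tumours.

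The 6 lowest probes of the J and D side lay together between 114675830 and 114719029, next to the constant side. The probe at 114683474 had the lowest mean of the locus, -2.22 over the 10 tumours. It read -0.42, -4.21, -0.43, -0.78 and -1.92 in Ikzf1+/- tumours 1 to 5, against -0.27, -4.16, -3.80, -4.22 and -1.98 in Ikzf1+/+ tumours 1 to 5. Ikzf1+/- tumour 2 and Ikzf1+/+ tumours 2, 3 and 4 formed the low end, both number 5 tumours lay near -2, and the other 4 tumours lay above -1. The neighbouring probe at 114675830 read -0.54, -4.53, -0.22, -0.88 and -2.20 in Ikzf1+/- tumours, against -0.26, -3.84, -2.18, -4.19 and -1.82 in Ikzf1+/+ tumours. The same 6 tumours were below -1 here, and the other 4 were again above it.

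The next probes, towards the V side, separated Ikzf1+/+ tumour 4 from the other deep tumours. The probe at 114692582 read -0.38, -3.01, -0.81, -0.66 and -1.45 in Ikzf1+/- tumours 1 to 5, against -0.41, -4.24, -3.04, -0.57 and -1.33 in Ikzf1+/+ tumours 1 to 5. The probe at 114694549 read -0.46, -2.73, -0.66, -0.88 and -1.07 in Ikzf1+/- tumours, against -0.60, -4.39, -3.50, -0.45 and -1.57 in Ikzf1+/+ tumours. At both probes Ikzf1+/+ tumour 4 was back among the shallow tumours, while Ikzf1+/+ tumours 2 and 3 and Ikzf1+/- tumour 2 stayed at -2.73 or below. The probe at 114713478 read -0.37, -2.97, -0.55, -0.54 and -1.27 in Ikzf1+/- tumours, against -0.57, -3.89, -3.35, -0.82 and -1.86 in Ikzf1+/+ tumours. The probe at 114718970 read -0.45, -2.23, -0.57, -0.37 and -1.55 in Ikzf1+/- tumours, against -0.81, -3.91, -4.54, -0.34 and -1.51 in Ikzf1+/+ tumours. At these 6 probes the mean over 10 tumours was -2.22 to -1.59, the values of the genotypes overlapped, and limma across all autosomal probes gave adjusted p of 0.00424 to 0.0117 for tumour against non-leukemic DNA and 0.630 to 0.806 for the genotypes.

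The 3 probes at the constant end of this side differed from each other. The probe at 114664510 was the only J and D probe that was not low, at -0.14, 0.10, -0.02, 0.10 and 0.19 in Ikzf1+/- tumours and 0.90, 0.24, 0.15, 0.47 and 0.19 in Ikzf1+/+ tumours (limma adjusted p = 0.0765 against non-leukemic DNA). The probe at 114670169 read 0.05, -2.85, -0.04, -0.44 and -0.99 in Ikzf1+/- tumours and -0.59, -3.66, -3.71, -2.31 and -0.99 in Ikzf1+/+ tumours. The probe at 114672646 lay between deep neighbours and yet was shallow in every tumour, at -0.10, -0.29, -0.22, -0.31 and -0.44 in Ikzf1+/- and -0.31, -0.63, -0.31, -0.58 and -0.46 in Ikzf1+/+ tumours. It was below 0 in 10 of 10 tumours (limma adjusted p = 0.00134), and a ratio that stays near 0 at one probe inside a deep stretch gives no boundary by itself.

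The other 10 probes of this side, from 114744332 to 114795546, were all lowest in Ikzf1+/+ tumour 2. That tumour ranged from -4.63 to -1.52 over these probes. The probe at 114744332 reached from -4.63 in Ikzf1+/+ tumour 2 to -0.24 in Ikzf1+/- tumour 3, and the probe at 114784998 from -4.28 to -0.13 in Ikzf1+/- tumour 1. The probe at 114755757 ran from -2.57 to 0.022 and had Cy5 signals near background on 6 arrays. The ranges were -1.52 to -0.16 at 114751070, -2.98 to -0.19 at 114765397, -3.20 to -0.19 at 114767022, -3.05 to -0.03 at 114771840, -1.93 to -0.11 at 114780823, -2.13 to -0.35 at 114790197 and -3.94 to -0.27 at 114795546. Over all 9 other tumours these probes stayed at -1.68 or above.

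The deepest values rest on weak Cy5 signals and are not exact levels. At 114670169, 114675830 and 114683474 the Cy5 signal was not well above background on 4 arrays each, those of Ikzf1+/- tumour 2 and Ikzf1+/+ tumours 2, 3 and 4. At the 4 probes from 114692582 to 114718970 it was not well above background in Ikzf1+/+ tumours 2 and 3. Over the 19 probes this held for 0, 4, 0, 0 and 1 spots on the Ikzf1+/- arrays and 0, 15, 8, 5 and 2 spots on the Ikzf1+/+ arrays. The level of the tumour DNA at such spots could not be read exactly.

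**Figure D2:**
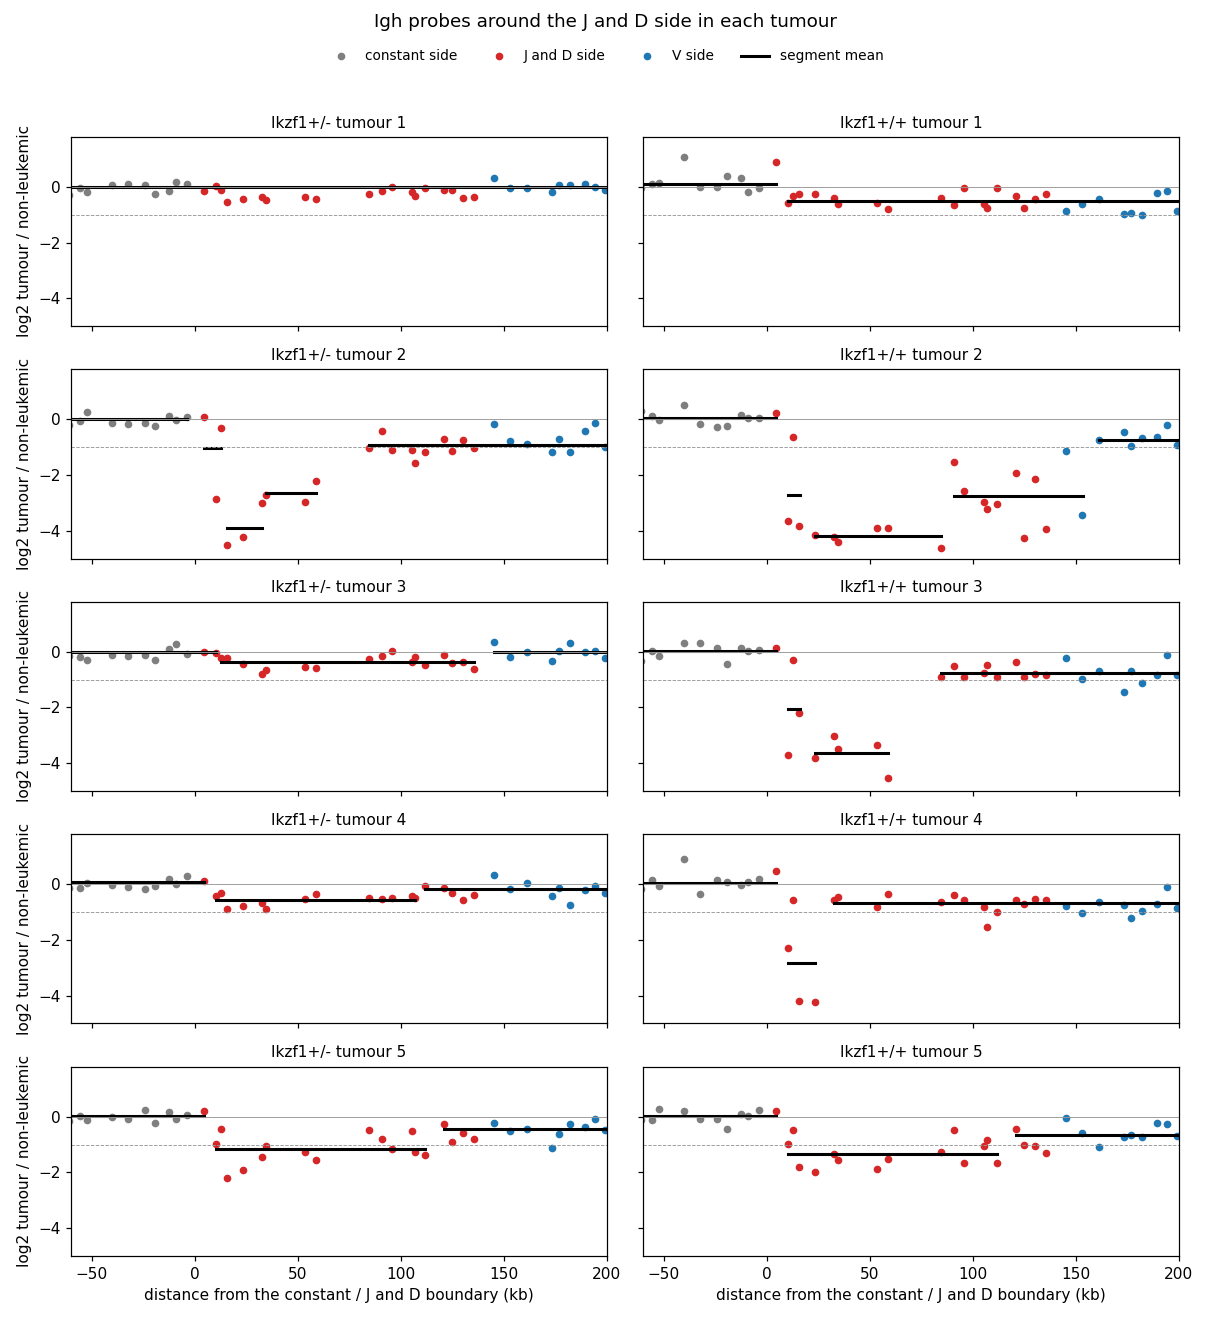
Log2 ratio of single probes (points) and of segments (lines) in each tumour around the border between constant side and J and D side, by distance from that border in kb, with Ikzf1+/- tumours in the left column and Ikzf1+/+ tumours in the right. The dashed line marks -1. Ikzf1+/- tumour 2 and Ikzf1+/+ tumours 2, 3 and 4 have probes near -4 just inside the border, both number 5 tumours have a segment at -1.18 (Ikzf1+/-) or -1.32 (Ikzf1+/+) over 102 kb, and the other 4 tumours stay above -1.

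Each array was divided into segments of at least 3 probes, and a loss was called where a segment of at least 5 probes had a mean of -0.3 or lower. Losses were called in 4 of 5 Ikzf1+/- tumours and 5 of 5 Ikzf1+/+ tumours. The first called loss began at the probe 114670169, which is 5.66 kb beyond the preceding probe, in 4 tumours, Ikzf1+/- tumours 4 and 5 and Ikzf1+/+ tumours 1 and 5. Counting also segments of 3 or 4 probes with a mean of -0.3 or lower, which are too short to be called, the low stretch began at that probe in 7 tumours, with Ikzf1+/+ tumours 2, 3 and 4 added. The called loss of Ikzf1+/- tumour 3 began 1 probe later, at 114672646. In Ikzf1+/- tumour 2 the first called loss began at 114744332, after uncalled segments of 3 probes each from 114664510 on, whose first probe was itself at 0.10. The end on the V side differed from tumour to tumour.

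Segments below -1 were present in 2 of 5 Ikzf1+/- tumours and 4 of 5 Ikzf1+/+ tumours. Ikzf1+/- tumour 2 had 3 probes at -1.02 from 114664510 to 114672705 (at 0.10, -2.85 and -0.29), 3 probes at -3.92 between 114675830 and 114692641 (6.63% of the reference, 2 of them with Cy5 not well above background), and 3 probes at -2.64 to 114719029 (16.0%). Ikzf1+/- tumour 5 had 14 probes at -1.18 between 114670169 and 114771899 (44.3%). The SD over these 14 probes was 0.52, which is the spread of the probes and not the error of the segment mean. They ran from -2.20 at 114675830 to -0.44 at 114672646. Whether the segment was deeper than removal of 1 copy was not tested.

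Among Ikzf1+/+ tumours, number 2 had the longest deep stretch, with 3 probes at -2.71 from 114670169, 6 probes at -4.20 from 114683474 to 114744391 (5.43% of the reference) and 11 probes at -2.74 to 114813236 (14.9%). This stretch passed the end of the J and D side into the first V probes. Ikzf1+/+ tumour 3 had 3 probes at -2.07 from 114670169 and 5 probes at -3.65 from 114683474 to 114719029 (7.98%). Ikzf1+/+ tumour 4 had 4 probes at -2.83 between 114670169 and 114683532 (14.1%), and 3 more at -1.80 on the V side between 114930317 and 114956321. Of these, 3 of the 4 and 2 of the 3 had Cy5 not well above background. So did all 6 and 8 of the 11 probes of the lower segments of Ikzf1+/+ tumour 2, and all 5 of the lowest segment of Ikzf1+/+ tumour 3. The levels of these segments are therefore uncertain. Ikzf1+/+ tumour 5 had 14 probes at -1.32 between 114670169 and 114771899 (40.0%), the same end probes as Ikzf1+/- tumour 5. Its probes ran from -1.98 at 114683474 to -0.46 at 114672646 (SD over probes 0.49), and its mean was likewise not tested against -1. The length in segments below -1 was 0, 49.5, 0, 0 and 102 kb in Ikzf1+/- tumours 1 to 5 and 0, 129, 41.3, 39.4 and 102 kb in Ikzf1+/+ tumours 1 to 5.

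Beyond the deep stretch, several tumours had a long plateau between 0 and -1 that ended within the V segments. In Ikzf1+/- tumour 2 it fell into 3 steps, of 53 probes at -0.91 from 114744332 to 115126863, 35 probes at -0.61 to 115379786 and 69 probes at -0.39 to 115808258. In Ikzf1+/- tumour 5 a segment of 61 probes at -0.45 ran from 114780823 to 115236736, followed by 118 probes at -0.14 to 116079598, which was too shallow to be called. The plateaus of these tumours became shallower with distance from the J and D side in steps, not at a single end.

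In Ikzf1+/+ tumours 1 to 4 the plateau was 58.1% to 61.9% of the reference and ended in a single step. It had 151 probes at -0.78 from 114886011 to 115978441 in tumour 1 (58.1%) and 160 probes at -0.75 from 114821269 to 115909227 in tumour 2 (59.6%). It had 100 probes at -0.76 from 114744332 to 115432774 in tumour 3 (59.1%) and, in tumour 4, 32 probes at -0.69 from 114692582 to 114930064 and 33 probes at -0.77 from 114960393 to 115213844 (58.7%). In tumours 1 and 2, 28 of the 151 and 22 of the 160 plateau probes had Cy5 not well above background. The next segment beyond the plateau lay at 0.15, -0.0029, 0.10 and 0.11 in tumours 1 to 4. In Ikzf1+/+ tumour 5 the steps were 30 probes at -0.67 from 114780823 to 115001173 and 143 probes at -0.26 to 116046793, of which the second was not called.

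The 4 shallow tumours differed in shape. Ikzf1+/- tumour 1 had no change point on the whole of chromosome 12, whose 14893 probes formed 1 segment at 0.0016, although its J and D mean was -0.25. Ikzf1+/- tumour 3 had 1 loss, of 17 probes at -0.37 from 114672646 to 114795605 (123 kb), which covered nearly the J and D side alone. Ikzf1+/- tumour 4 had 13 probes at -0.56 from 114670169 to 114767078 (96.9 kb), then 250 probes at -0.18 to 116803635 that were not called. Ikzf1+/+ tumour 1 had 31 probes at -0.50 from 114670169 to 114869145 before its deeper plateau, and was the only tumour whose J and D mean was higher than its near V mean, by 0.37.

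Other segments lay away from the J and D side or were too short to count. Ikzf1+/- tumour 5 had a called loss of 17 probes at -0.45 from 116506075 to 116724033, in which 1 probe, at 116647004, ranged from -1.51 to 1.53 over the 10 tumours and had Cy5 not well above background on 7 arrays. The other 16 probes were well above background in this tumour. Ikzf1+/+ tumour 4 had 3 probes at -0.85 from 116057187 to 116075316, below the 5 probes required and with Cy5 not well above background at 2 of them.

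**Figure D3:**
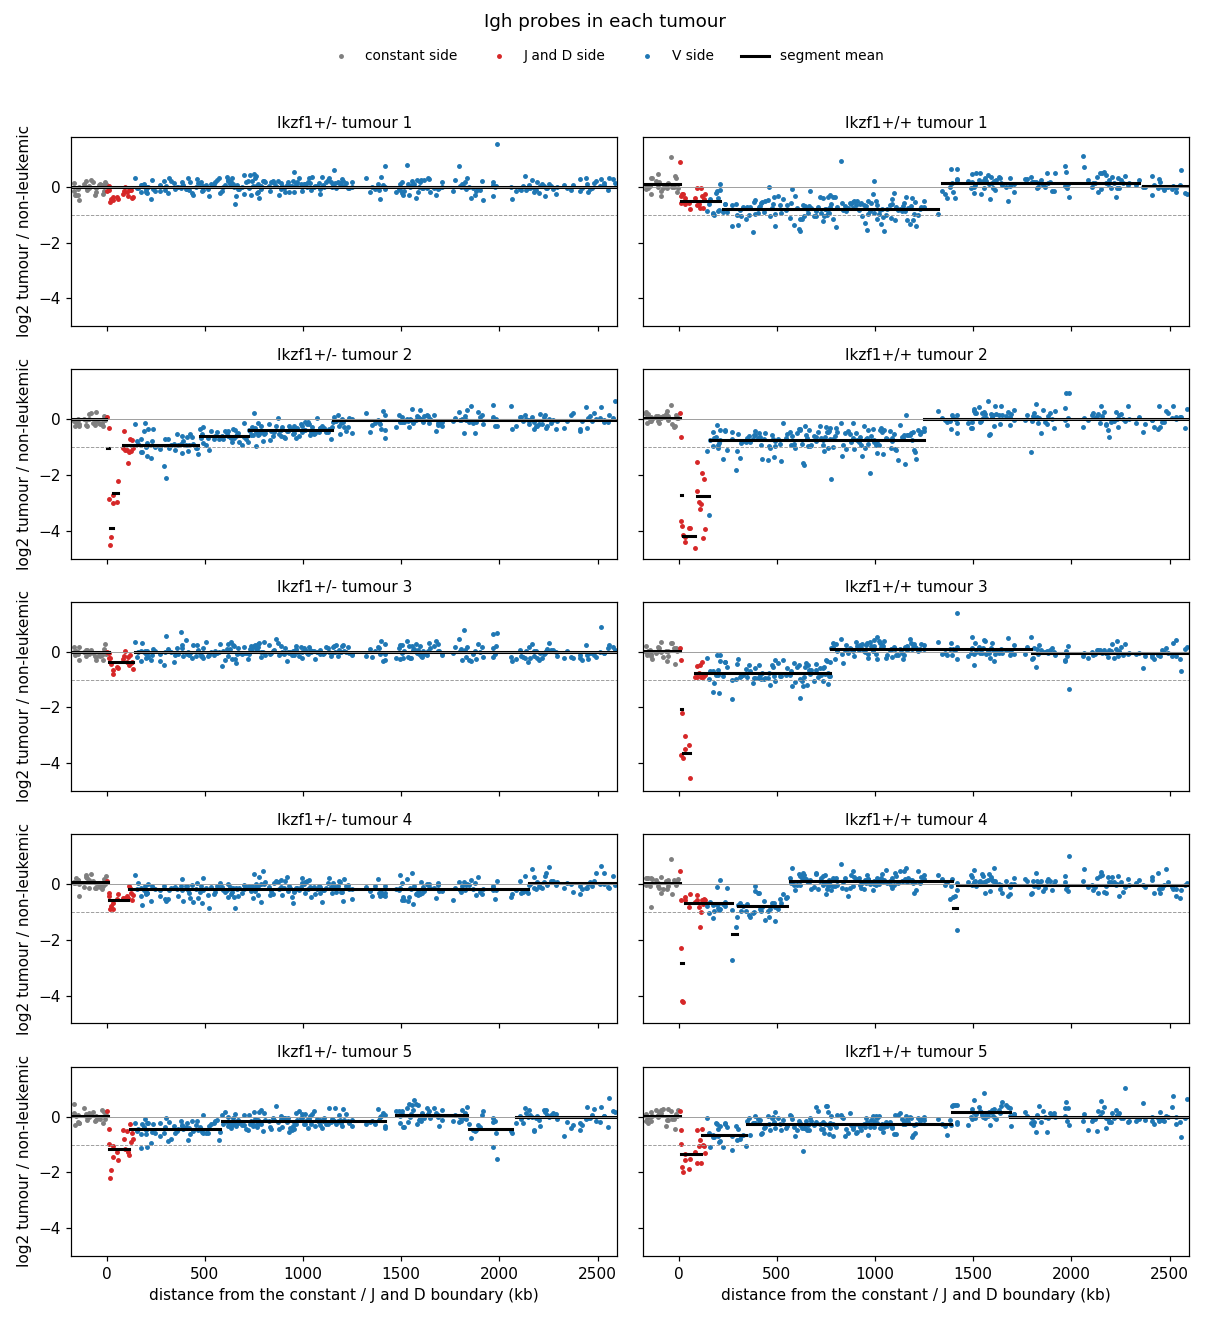
Log2 ratio of every probe of the Igh locus (points) and segment means (lines) in each tumour, by distance from the border between constant side and J and D side in kb, with Ikzf1+/- tumours in the left column and Ikzf1+/+ tumours in the right. The dashed line marks -1. All profiles lie near 0 left of the border, and the called loss next to it ends at different places, from 114767078 in Ikzf1+/- tumour 4 to 115978441 in Ikzf1+/+ tumour 1, with none segmented in Ikzf1+/- tumour 1.

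The V side was cut into 3 parts of equal length, counted from the J and D side. Its near part (117 probes, to 115616666) averaged 0.033, -0.65, 0.015, -0.20 and -0.31 in Ikzf1+/- tumours 1 to 5, against -0.75, -0.78, -0.56, -0.32 and -0.34 in Ikzf1+/+ tumours 1 to 5. All Ikzf1+/+ tumours were at -0.32 or below and Ikzf1+/- tumours 1 and 3 were at the level of the reference, but Ikzf1+/- tumour 2 lay among the Ikzf1+/+ tumours. The near part averaged -0.22 ± 0.28 in Ikzf1+/- and -0.55 ± 0.22 in Ikzf1+/+ (SD, n = 5 each).

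The middle part (95 probes) averaged 0.067, -0.17, 0.025, -0.17 and -0.033 in Ikzf1+/- tumours, against -0.34, -0.32, 0.094, 0.073 and -0.068 in Ikzf1+/+ tumours. Here only Ikzf1+/+ tumours 1 and 2, whose plateaus ended last, were below -0.3. The far part (74 probes, 1 of them without a value in Ikzf1+/- tumour 5 owing to a marked spot) averaged 0.030, -0.011, -0.0053, -0.028 and -0.12 in Ikzf1+/- tumours, against 0.14, 0.032, -0.047, 0.012 and -0.0034 in Ikzf1+/+ tumours. The far V segments were thus near the reference in all tumours, the lowest being Ikzf1+/- tumour 5, which had the called loss there.

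Set against the constant side of the same tumour, the whole V side was lower in 3 of 5 Ikzf1+/- tumours and 5 of 5 Ikzf1+/+ tumours. The difference of V side minus constant side was 0.096, -0.27, 0.064, -0.19 and -0.18 in Ikzf1+/- tumours 1 to 5, against -0.48, -0.47, -0.22, -0.14 and -0.18 in Ikzf1+/+ tumours 1 to 5. It averaged -0.096 ± 0.16 in Ikzf1+/-, -0.30 ± 0.16 in Ikzf1+/+ (SD, n = 5 each) and -0.20 ± 0.19 over all 10 tumours. The V side held 0, 15, 0, 0 and 4 probes below -1 in Ikzf1+/- tumours and 36, 37, 17, 13 and 5 in Ikzf1+/+ tumours, of 286 (285 in Ikzf1+/- tumour 5). For the J and D side minus the constant side, 10 of 10 tumours were below 0, at -0.73 ± 0.61 in Ikzf1+/- and -1.52 ± 1.00 in Ikzf1+/+.

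Tumour DNA was then tested against non-leukemic DNA over all autosomal probes with limma, genotypes weighted equally. Of the 331 probes of the locus, 84 were lower at an adjusted p of 0.05, which is 25.4%, against 1.38% of all 382486 probes tested. They were 18 of 19 on the J and D side, 66 of 286 on the V side and 0 of 26 on the constant side. The 5 probes that were higher, or 1.51% against 1.75% of all probes, lay at 114619694 on the constant side and at 116187638, 116213616, 116495001 and 117176742 on the V side. The probe at 114619694 was high in Ikzf1+/+ tumours alone, at 0.22 to 1.08, against -0.13 to 0.054 in Ikzf1+/- tumours (limma adjusted p = 0.121 for the genotypes). The median ratio over 10 tumours was -1.04 for J and D probes, -0.16 for V probes and 0.0063 for constant probes, against -0.0015 for all probes. The dyes were never swapped, and any dye effect common to the arrays stays in these ratios.

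In windows of 100 kb, 9 of the 27 windows inside the locus were lower in tumours (limma adjusted p below 0.05), which is 33.3%, against 13.2% of all 23426 windows. No window was higher in this test, against 7.84% of all windows, and 15 of the 27, or 55.6% against 37.0% of all windows, had an unadjusted p below 0.05 in either direction. The 9 windows were consecutive, starting at 114600001 and ending with the window at 115400001. Their means over 10 tumours were -0.56, -0.995, -0.50, -0.64, -0.48, -0.47, -0.38, -0.32 and -0.23 in order of position, with limma adjusted p from 0.00122 to 0.0395. They were below 0 in 9, 10, 10, 9, 8, 9, 8, 9 and 7 of 10 tumours. The first of them holds both constant and J and D probes, and the second lies wholly on the J and D side.

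The lowest window, at 114700001, read -0.23, -1.27, -0.33, -0.40 and -0.91 in Ikzf1+/- tumours 1 to 5, against -0.47, -3.17, -1.27, -0.71 and -1.18 in Ikzf1+/+ tumours 1 to 5. All 10 tumours were below 0 and the genotypes overlapped. The window at 114900001, on the near V side, read 0.02, -1.13, -0.02, -0.33 and -0.48 in Ikzf1+/- tumours, against -0.94, -0.97, -0.84, -1.07 and -0.68 in Ikzf1+/+ tumours. Only Ikzf1+/- tumour 2 kept the groups from standing apart there.

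**Figure D4:**
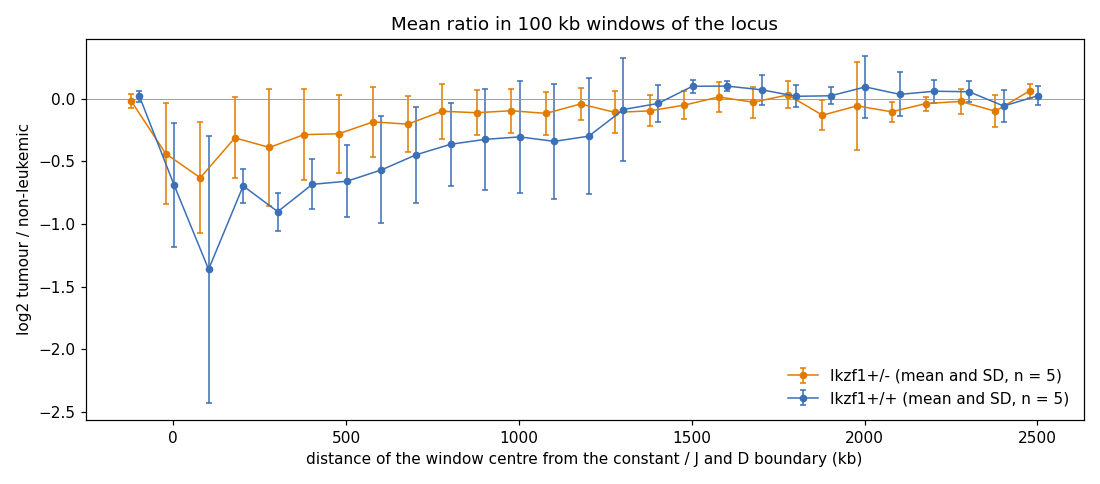
Group mean and SD of the log2 ratio in 100 kb windows across the locus, by distance from the border between constant side and J and D side in kb, for Ikzf1+/- and Ikzf1+/+ tumours (n = 5 each). The Ikzf1+/+ mean is lower from the J and D side into the near V side, by 0.73 in the window at 114700001, with SDs that overlap over much of the stretch.

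The genotypes did not pass the test anywhere in the locus. With limma over all autosomal probes, 0 of 331 probes differed between Ikzf1+/- and Ikzf1+/+ tumours at an adjusted p of 0.05, against 0.0884% of all probes, 0 were higher in Ikzf1+/-, against 0.0178%, and the smallest adjusted p was 0.0722. At an unadjusted p of 0.05 there were 68 probes, or 20.5% against 8.53% of all probes, and 48 of them were higher in Ikzf1+/-, or 14.5% against 4.13%. In direction, 221 of 331 probes were higher in Ikzf1+/-, made up of 18 of 19 J and D probes, 195 of 286 V probes and 8 of 26 constant probes. The median difference of Ikzf1+/- minus Ikzf1+/+ was 0.73 for J and D probes, 0.14 for V probes and -0.051 for constant probes, against 0.0016 for all probes. Probes of one tumour share its joins and are not separate observations of a genotype.

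The probe with that smallest adjusted p, at 116723974 on the far V side, ran the other way. It read -0.42, -0.36, -0.34, -0.34 and -0.58 in Ikzf1+/- tumours 1 to 5, against 0.70, 0.055, -0.057, 0.54 and 0.080 in Ikzf1+/+ tumours 1 to 5. The groups did not overlap at this probe, which was singled out after its values were seen. Some other probes of the locus also had no overlap between the groups. They were not counted and the share of all probes without overlap was not determined, so nothing is concluded from them.

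By windows, 0 of 27 differed between genotypes in limma (smallest adjusted p = 0.188), against 0.0213% of all windows, and 7 had an unadjusted p below 0.05, or 25.9% against 16.6%. Of these 7, 4 were higher in Ikzf1+/-, or 14.8% of the 27, against 10.7% of all windows at that threshold and direction. The 3 windows with the highest difference of Ikzf1+/- minus Ikzf1+/+ were those at 114700001 (0.73, adjusted p = 0.388), 114900001 (0.51, adjusted p = 0.205) and 115000001 (0.40, adjusted p = 0.238). Within slide 3, Ikzf1+/- tumour 1 minus Ikzf1+/+ tumour 5 gave 0.95, 0.70 and 0.33 in these windows. The 3 with the lowest difference were at 116500001 (-0.16, adjusted p = 0.208), 116600001 (-0.15, adjusted p = 0.637) and 116100001 (-0.15, adjusted p = 0.188). Within slide 3 they gave -0.12, 0.13 and -0.13, so that the second had the opposite sign there. In 0 windows were all Ikzf1+/- tumours higher than all Ikzf1+/+ tumours, against 2.62% of all windows, and in 1, at 116100001, all were lower, against 1.82%.

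The called length was 0, 1052, 123, 96.9 and 776 kb in Ikzf1+/- tumours 1 to 5, against 1291, 1211, 724, 491 and 322 kb in Ikzf1+/+ tumours 1 to 5. Ikzf1+/- tumours 1, 3 and 4 were shorter than every Ikzf1+/+ tumour, and Ikzf1+/- tumours 2 and 5 were longer than 3 of them. The 776 kb of Ikzf1+/- tumour 5 counts its separate called loss of 218 kb from 116506075 to 116724033, on the far V side. The mean was 409 ± 473 kb in Ikzf1+/- and 808 ± 430 kb in Ikzf1+/+ (SD, n = 5 each), a difference of -398 kb that did not pass the test (two-sided exact permutation p = 0.198, adjusted p = 0.198 over 2 measures). Calls at -0.5 in place of -0.3 gave -603 kb (exact p = 0.0238), calls at -0.2 gave -606 kb (exact p = 0.0635) and normexp background correction gave -121 kb (exact p = 0.540). Leaving out single tumours gave -559 to -278 kb, the smallest difference without Ikzf1+/+ tumour 1 (exact p = 0.365). Within slide 3 the difference was -322 kb.

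The lowest segment of the locus was at 0.0016, -3.92, -0.37, -0.56 and -1.18 in Ikzf1+/- tumours 1 to 5, against -0.78, -4.20, -3.65, -2.83 and -1.32 in Ikzf1+/+ tumours 1 to 5. Ikzf1+/- tumour 1 had no segment of its own in the locus, so the mean of its 1 segment over all of chromosome 12 was used, although its J and D mean was -0.25. The values of Ikzf1+/- tumour 2 and Ikzf1+/+ tumours 2, 3 and 4 rest on spots near background, so they have no order among themselves. Each of the other 4 Ikzf1+/- tumours was shallower than at least 4 Ikzf1+/+ tumours. The mean was -1.20 ± 1.57 in Ikzf1+/- and -2.56 ± 1.47 in Ikzf1+/+ (SD, n = 5 each), a difference of 1.35 in the measured values (two-sided exact permutation p = 0.190, adjusted p = 0.198). It was 2.03 without Ikzf1+/- tumour 2 (exact p = 0.0476), 0.94 without Ikzf1+/+ tumour 2 (exact p = 0.333) and 0.21 with normexp background correction (exact p = 0.548). With probes well above background alone it was 0.56 (exact p = 0.0397), but that filter took out the deep values, leaving 4 of 19 J and D probes. The smallest p that 5 against 5 tumours allow is 0.00794.

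As a description, the 5 windows outside the locus whose 10 values followed the J and D mean most closely had Pearson correlations of 0.92 to 0.95. They started at 84600001 on chromosome 2, 58800001 on chromosome 18, 129500001 and 55800001 on chromosome 3 and 59600001 on chromosome 13. Their values spanned only -0.19 to 0.052 over all tumours, and they are the extremes of 23426 windows over the same 10 arrays.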

How the data were processed

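Array CGH of 10 mouse leukemias was analysed from the deposited scanner files. Per the file headers, each spot's Cy5 and Cy3 intensity is the processed signal of Agilent Feature Extraction 10.7.3.1 on build mm9 (10.5.1.1 per the submitters' processing notes), background-subtracted and dye-normalised. The deposited series matrix held uncentred log2 ratios of Cy5 over Cy3 (slope 1.00 on the scanner's deposited log10 ratio of Cy5 over Cy3, converted to log2). It served as an alternative.

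Log2 of Cy5 over Cy3 was computed for 412783 spots, marked outlier spots were left out, spots of 1 probe were averaged (402404 probes, 382487 of those placed on autosomes), and the autosomal median was subtracted per array. The number of arrays limits the precision. Segments came from penalised least squares (PELT; at least 3 probes, penalty 2 times the noise variance times the logarithm of the number of autosomal probes). limma 3.58.1 (R 4.3.3) tested all autosomal probes and all 100 kb windows with at least 3 probes, with Benjamini-Hochberg adjustment. Values per tumour had two-sided exact permutation tests over 252 splits. Other tools were Python 3.11.15, numpy 2.4.6, pandas 2.3.3, scipy 1.17.1, numba 0.67.0 and matplotlib 3.10.9. The scripts were tested on simulated data.

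Named were the J and D probes (6 lowest in full), ends of calls, windows past a test or the 3 highest and 3 lowest, and the 5 windows most alike. The members and lists were chosen with earlier results of these data known. Recombination factor genes and other receptor loci could not be placed on the probes, which carry no gene names in the files, and were not analysed here. Normexp, loess, centring, filters, segmentation and calling settings, slide, replicate block and leaving out tumours were tried. Normexp used median signals.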

Additional observations from a re-analysis of the deposited data

Results flagged for a closer look

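Of 28 sets of 5 tumours examined for a value far from the others, 1 stood out by Dixon's criterion. At the J and D probe starting at 114694549, Ikzf1+/- tumour 2 lay at -2.73 and the other Ikzf1+/- tumours at -1.07 to -0.46, a gap of 0.7318 of the whole range. Chance marks about 1 in 20 such sets.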

How the results depend on the processing

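Genotype calls among the 331 probes numbered 0, and 1 with normexp background correction, with probes well above background and unsaturated, with centring on chromosome 12 outside the locus and with slide as a random block; leaving out single tumours gave 0 to 2 (2 without Ikzf1+/+ tumour 3, 1 without Ikzf1+/+ tumour 5, 1 without Ikzf1+/- tumour 2). Genotype calls among windows were 0 under all 20 alternatives run, and tumour calls 8 to 12. The genotype difference in called length ran from -559 to -278 kb (exact permutation p from 0.0873 to 0.365) when single tumours were left out and from -606 kb (calls at -0.2) to -121 kb (normexp) otherwise, passing 0.05 only with calls at -0.5 (-603 kb, exact p = 0.0238). Calls of at least 3 probes, chosen after seeing the data, gave -402 kb. The difference in the lowest segment ran from 0.94 to 2.03 when single tumours were left out and from 0.21 (normexp) to 1.49 otherwise, and was 0.56 (exact p = 0.0397) with probes well above background, a filter that takes out the deep values. The J and D mean over all tumours, -1.11, was -0.54 with normexp, which adds an offset to both channels, and -0.30 with probes well above background, of which 4 of 19 remained; without its first probe, chosen after seeing the data, it was -1.19. V side minus constant side stayed between -0.23 and -0.15. Replicate numbers gave no clear pairing: same-numbered tumours correlated at 0.044, 0.045, -0.018, 0.0035 and 0.20. Of 5 Ikzf1+/- tumours, 2 correlated best with the Ikzf1+/+ tumour of their own number, those numbered 1 and 5. With the replicate block, 0 probes and 0 windows were called (93 and 10 at an unadjusted p of 0.05), the length difference was -398 kb (exact p = 0.25) and the lowest segment difference 1.35 (exact p = 0.0625, the smallest 5 pairs allow). The block was not run for the descriptions without a test. Background limits the depth readable at the deepest probes, and probe spacing limits the ends.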
